A study of Drosophila melanogaster with 3 samples.

Results

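The vacuolar ATPase (V-ATPase) of Drosophila melanogaster is encoded by 33 protein-coding genes whose symbol begins with Vha, out of 13945 protein-coding genes annotated on the main chromosome arms, and these 33 genes were described here by the peaks of the transcription factor Grain that lie at them. The genes were chosen by symbol and not by any measured value. A peak was counted at a gene when its summit lay in the gene body or within 1000 bp upstream of the gene's 5' end. The study profiled Grain, a GATA-type zinc-finger factor, by chromatin immunoprecipitation and sequencing (ChIP-seq) in 1 group of 3 biological replicates, with no second condition. Each replicate was chromatin from whole embryos collected at 0 to 24 h, with males and females pooled, of the strain grn-GFP, a transgenic line in which GFP is fused to the C-terminus of Grain, and the precipitation used an antibody against GFP, although another label field gives the antibody as grn. Sonication sheared the chromatin into fragments of 200 to 800 bp. All replicates share the 1 transgene and the 1 line, and whole embryos of this age span hold every tissue and stage together, so a peak cannot be placed in a cell type. No control sample was analysed here, and read counts are absent from the lists, which leaves the depth behind each peak unknown. The authors deposited 1 list of 30000 peaks for each replicate, 1 of 30000 peaks from the pooled replicates, and an optimal list of 6580 peaks, which is the 6580 pooled peaks of highest signal. Signal is the authors' value for each peak, on an unstated scale, and it was used only to rank peaks within a list (rank 1 is the strongest), while replicates were compared by rank.

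The V-ATPase is a rotary proton pump. Its peripheral V1 sector hydrolyses ATP and turns a central stalk, and its membrane V0 sector carries protons across the membrane through a ring of proteolipid subunits. The enzyme acidifies lysosomes, endosomes and secretory vesicles in every cell, and in insect epithelia such as the Malpighian tubules it sits in the apical plasma membrane and drives ion and fluid transport. Many fly subunits are encoded by several paralogs, of which one is used in epithelia and others in narrower settings such as testis or neurons. In flies the factor Mitf, which binds an E box with the core CACGTG, is a known regulator of V-ATPase genes.

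The sequences below lie under optimal summits of Vha100-2, Vha100-5, Vha55 and Vha100-1, shown because summits at the same gene differed in whether they held the GATA hexamer (AGATAA or, with a final G, AGATAG, and with T in first place TGATAA or, with a final G, TGATAG, on either strand), the site that factors of the GATA family bind. Each line gives the 101 bases centred on an optimal summit, from the RefSeq release 6 genome (dm6), plus strand, with hexamers in capitals. The first 4 lines hold a hexamer and the last 4 do not, each set in order of signal. Vha16-1, whose summits of signal 560.2 (no hexamer) and 380.7 (3 hexamers) include the strongest of the family, is described further on and not printed.
Vha100-2 intron summit of signal 399.6 at chr3R:18397177-18397277: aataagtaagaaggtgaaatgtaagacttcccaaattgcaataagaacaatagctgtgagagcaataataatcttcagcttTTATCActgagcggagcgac
Vha100-5 intron summit of signal 353.4 at chr2L:11740732-11740832: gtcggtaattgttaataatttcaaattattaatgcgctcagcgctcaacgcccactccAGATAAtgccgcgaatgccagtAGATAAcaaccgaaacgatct
Vha55 intron summit of signal 297.8 at chr3R:12626750-12626850: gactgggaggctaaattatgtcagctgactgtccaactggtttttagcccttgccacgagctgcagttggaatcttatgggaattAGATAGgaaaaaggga
Vha100-1 intron summit of signal 169.1 at chr3R:29134168-29134268: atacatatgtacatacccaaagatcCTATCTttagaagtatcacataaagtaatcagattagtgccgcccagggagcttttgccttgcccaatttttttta
Vha100-2 upstream summit of signal 416.7 at chr3R:18399304-18399404: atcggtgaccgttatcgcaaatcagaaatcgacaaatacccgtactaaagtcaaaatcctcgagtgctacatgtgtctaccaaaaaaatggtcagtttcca
Vha100-5 upstream summit of signal 244.0 at chr2L:11738701-11738801: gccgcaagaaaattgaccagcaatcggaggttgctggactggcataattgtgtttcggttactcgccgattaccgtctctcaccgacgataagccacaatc
Vha55 intron summit of signal 227.1 at chr3R:12626952-12627052: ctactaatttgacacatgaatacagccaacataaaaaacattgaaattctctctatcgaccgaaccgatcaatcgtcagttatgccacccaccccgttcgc
Vha100-2 intron summit of signal 211.8 at chr3R:18398242-18398342: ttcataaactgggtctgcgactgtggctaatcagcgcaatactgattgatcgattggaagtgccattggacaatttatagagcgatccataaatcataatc
In the Vha100-2 intron window the hexamer is TGATAA on the minus strand, with its first base in plus-strand order 31 bp to the right of the summit. The Vha100-5 intron window holds AGATAA at offsets 8 and 30 bp, both on the plus strand. At Vha55 the hexamer AGATAG begins at offset 35 bp, and at Vha100-1 it lies on the minus strand at offset -25 bp. The upstream window at Vha100-2 of signal 416.7 holds none of the 4 hexamers, although its signal was above that of the intron window with one at the same gene.

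Of the 33 V-ATPase genes, 7 (21.2%) held at least 1 optimal Grain summit, beside 25.5% of all protein-coding genes. These were Vha55 and Vha44 of the V1 sector, and Vha100-1, Vha100-2, Vha100-5, Vha16-1 and VhaPPA1-1 of the V0 sector. Together they held 14 optimal summits. A further 10 genes held pooled summits that fell below the optimal list, which brings the genes with any pooled summit to 17 (51.5%), beside 47.4% of all protein-coding genes. The family as a whole was therefore near the background at both thresholds, with the smaller count slightly below it and the larger slightly above.

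No summit in any of the 5 lists lay at 11 of the genes, namely Vha68-3, Vha36-2, Vha36-3, Vha14-2, Vha100-3, Vha16-2, Vha16-4, Vha16-5, VhaPPA1-2, VhaM9.7-d and VhaAC45RP. For each of them at least 1 paralog of the same subunit had a summit in 1 of the lists. The share of all protein-coding genes without a summit in any list was not counted, so the 11 have no background. In replicates 1, 2 and 3, any summit lay at 54.55%, 60.61% and 51.52% of V-ATPase genes. The shares of all protein-coding genes were 51.92%, 61.04% and 48.94%. A summit in the whole list of each of the 3 replicates, not necessarily at the same place, was found at 16 genes (48.5%), beside 41.8% of all protein-coding genes.

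**Figure D1:**
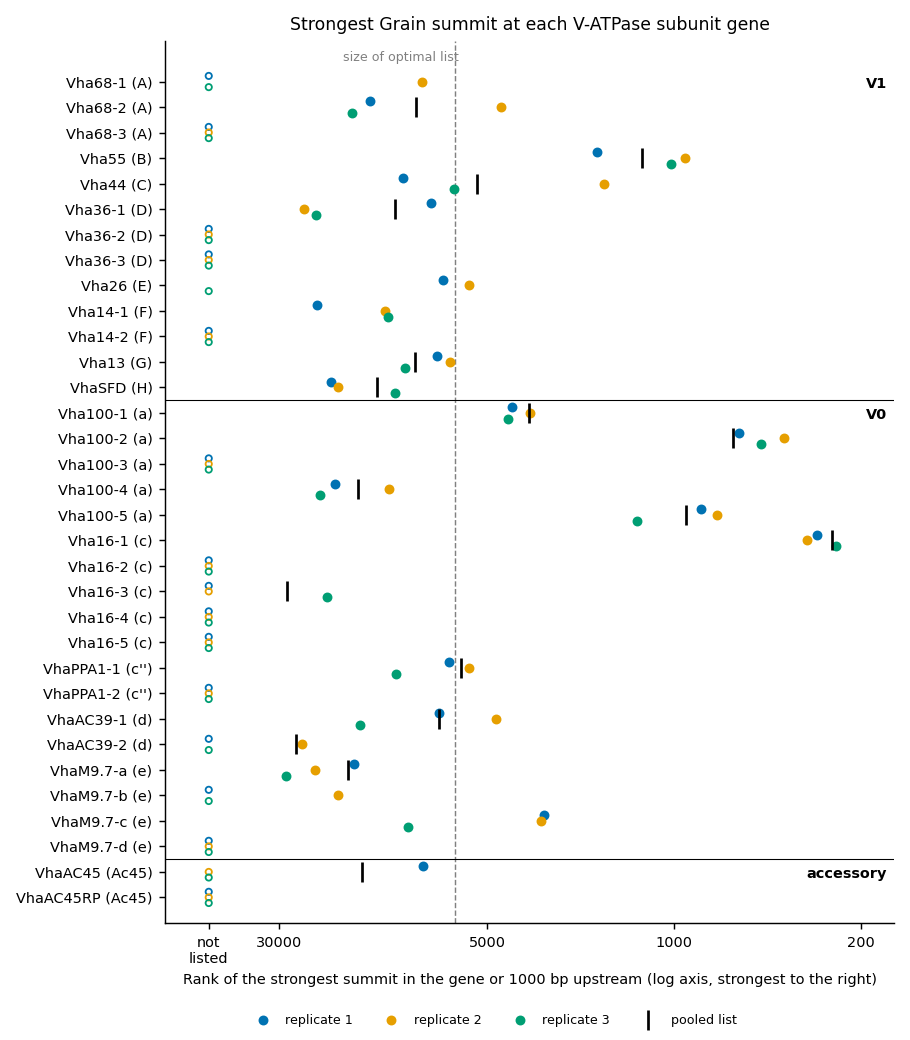
Rank of the strongest Grain summit at each of the 33 V-ATPase genes in replicates 1, 2 and 3 (points) and in the pooled list (bars), on a log axis with the strongest to the right; open points mark a gene with no summit in that replicate and the dashed line marks rank 6580. Vha55, Vha100-1, Vha100-2, Vha100-5 and Vha16-1 stand to the right of the line in all 3 replicates, whereas 11 genes have open points only.

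Gene length moved with these counts. Among the 15 V-ATPase genes longer than the median protein-coding gene of 2166 bp, 6 (40.0%) held an optimal summit, beside 36.8% of all such genes. Of the 18 genes at or below that length only VhaPPA1-1 did (5.56%), beside 14.2% of all short genes. With pooled summits the short genes numbered 6 of 18 (33.3%), beside 33.5% of all short genes.

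In the V1 sector 2 of 13 genes held an optimal summit and 6 a pooled one. The single B subunit gene, Vha55, whose product forms the ATP-binding head of V1 with subunit A, had the strongest V1 summit. Its signal was 297.8, with ranks of 1950, 911 and 1030 in replicates 1, 2 and 3 (mean 1297 ± 569, SD, n = 3), and it lay in an intron 901 bp from the nearest Vha55 transcription start site (TSS), at chr3R:12626685-12626842. All 3 replicates put it among their 6580 strongest peaks. A second optimal summit of signal 227.1 lay in the same intron 699 bp from the TSS. Both were matched to the same strongest overlapping peak in each replicate, so they share these ranks. The nearest summits of replicates 1, 2 and 3 lay 46, 64 and 6 bp from the first and 12, 138 and 6 bp from the second. Replicates 1 and 3 thus held a separate summit near each, and the shared ranks do not tell the pair apart. At the Vha55 promoter itself there was only a weaker pooled summit, of signal 101.1, 34 bp upstream of the TSS, with ranks of 4153 and 3395 in replicates 2 and 3 and no matching peak in replicate 1.

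Vha44 on arm 2R encodes subunit C, which joins the peripheral stalk of V1 to V0 and is released when the enzyme disassembles. Its optimal summit had a signal of 127.2 and ranks of 10341, 1836 and 6656 (6278 ± 4270, SD, n = 3), 219 bp downstream of its TSS in an intron, at chr2R:16336188-16336647. Replicate 2 alone placed it among its 6580 strongest peaks. Just below the optimal threshold, a summit of signal 107.7 lay 46 bp upstream of the TSS and held both the Mitf core CACGTG and its extended form TCACGTGA within 50 bp. The neighbouring gene Hmgs, which encodes the HMG-CoA synthase of the mevalonate pathway, has a TSS 77 bp from that summit and 328 bp from the optimal one.

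The other V1 genes had no optimal summit. Among those with pooled summits, Vha68-2, the epithelial catalytic A subunit, had a signal of 83.05 at 42 bp from a TSS in the 5' UTR, with ranks of 13706, 4431 and 15991. Vha13 (subunit G of the peripheral stalk) had its strongest pooled summit at 82.75, 112 bp into the gene in coding sequence, with ranks of 7687, 9187 and 13058. All of these ranks but the replicate 2 value of Vha68-2 lay outside the 6580 strongest. Vha36-1 (rotor subunit D) reached 70.96, 37 bp upstream of its own TSS and 35 bp from that of CG8187, so the summit cannot be given to one of these genes. VhaSFD (subunit H, which in yeast silences free V1) reached 60.76, 40 bp upstream of its TSS, and that window held the DREF element TATCGATA.

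Vha26 (subunit E of the peripheral stalk) and Vha14-1 (rotor subunit F) had summits in replicates and none in the pooled list by the rule used here. Vha26 ranked 7290 and 5846 in replicates 1 and 2, at 3273 and 3332 bp from its 5' end, and was absent from replicate 3. Vha14-1 ranked 21726, 12082 and 11782, and a pooled summit of signal 113.6, which is in the optimal list at rank 6304, lay 33 bp beyond the reach of the gene on its downstream side, with its nearest TSS that of Gmppa at 437 bp. Vha68-1, a second A subunit gene, had a summit at rank 8802 in replicate 2 and none in the others, and the same peak counts for the TOR kinase gene.

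In the V0 sector 5 of 18 genes held an optimal summit and 10 a pooled one, and the strongest summits of the family were here. Subunit a, the large membrane protein that holds the proton path beside the ring and sets where the enzyme is sent, is encoded by the 5 Vha100 genes, of which 3 had optimal summits. Vha100-2 had the most of any V-ATPase gene, with 4 optimal summits among 7 pooled ones. The strongest, of signal 416.7, lay 185 bp upstream of its 5' end at chr3R:18399019-18399538, with ranks of 872, 388 and 474 (578 ± 258, SD, n = 3). The next, of signal 399.6 at chr3R:18397072-18397319, lay in an intron of the longer transcript, 299 bp upstream of the TSS of the shorter one, with ranks of 572, 1226 and 570 (789 ± 378, SD, n = 3). Their replicate ranges overlap, so their order is not resolved.

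The remaining optimal summits at Vha100-2 were of signal 211.8, 877 bp inside the gene with ranks of 3274, 1396 and 3059, and of signal 167.2, 384 bp upstream with ranks of 5156, 9540 and 1739. The latter varied most between replicates among the 4, with an SD of 3910 on a mean rank of 5478. Vti1b, a SNARE gene, has a TSS nearer to the summits of signal 399.6 (232 bp) and 167.2 (156 bp) than Vha100-2 does. Counting protein-coding genes only, these are the only 2 of the 14 optimal summits that lay closer to another gene's TSS. The margin was narrow at some others, among them the strongest summit of Vha16-1 described below. The neighbouring paralog Vha100-4 had only a weak pooled summit, of signal 51.21, 442 bp upstream of its 5' end.

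Vha100-5 had 2 optimal summits. The stronger, of signal 353.4 at chr2L:11740628-11740999, lay in an intron 1834 bp from the TSS and held the pair of AGATAA sites printed above, with ranks of 793, 691 and 1377 (954 ± 370, SD, n = 3). The weaker, of signal 244.0 at chr2L:11738549-11738931, lay 197 bp upstream and held no hexamer, with ranks of 1397, 4210 and 1779 (2462 ± 1530, SD, n = 3). The intron summit outranked the promoter summit in each of the 3 replicates. The closest TSS of another protein-coding gene, CG42470, lay 12773 bp from the intron summit. Vha100-1, the paralog known from synaptic vesicles in neurons, had 1 optimal summit, of signal 169.1, at chr3R:29133988-29134447. The summit lay in an intron 2951 bp from the Vha100-1 TSS and 3246 bp from that of dgt6. Its ranks of 4054, 3467 and 4168 (3896 ± 376, SD, n = 3) made it steady across replicates at a moderate strength.

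Vha16-1 on arm 2R encodes the main proteolipid subunit c of the proton-carrying ring, and held the strongest summit of the whole family. That summit, at chr2R:6628331-6628638, had a signal of 560.2, pooled rank 256 and ranks of 291, 319 and 247 (286 ± 36.3, SD, n = 3). It lay in an intron 3892 bp from the nearest Vha16-1 TSS and 3915 bp from that of CG33919, and held no hexamer within 50 bp. Its SD of ranks was the smallest among the 14 summits, but its mean rank was also the best. SDs at unlike mean ranks are not directly comparable. A second intron summit, of signal 380.7 at chr2R:6630850-6631232, lay 1342 bp from the TSS with 3 hexamers and ranks of 589, 469 and 1664 (907 ± 658, SD, n = 3). The third, of signal 152.9 at chr2R:6632775-6633234, lay in the 5' UTR 85 bp from the TSS with ranks of 4084, 2960 and 6032 (4359 ± 1550, SD, n = 3). Its window held 1 hexamer and also TCACGTGA, so the promoter summit of Vha16-1 was the one optimal summit of the family with a Mitf core. The 4 other c subunit genes were without an optimal summit: Vha16-3 had a pooled summit of signal 24.39 at rank 28001, and the others had none.

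VhaPPA1-1, the c'' proteolipid gene, had 1 optimal summit close to the threshold, with a signal of 114.3 at chr3R:14903912-14904371, 81 bp upstream of its TSS. The lowest signal in the optimal list was 109.7. Its ranks of 6933, 5847 and 10969 put it inside the 6580 strongest in replicate 2 alone, as at Vha44. VhaAC39-1, which encodes subunit d at the foot of the rotor, fell just outside, with a pooled summit of signal 98.05 at 162 bp in the 5' UTR and ranks of 7567, 4629 and 14910. Its paralog VhaAC39-2 had one of signal 27.17. Among the small e subunit genes, VhaM9.7-b had a summit in replicate 2 alone (rank 18029), VhaM9.7-c had one in all 3 replicates and none in the pooled list, and VhaM9.7-a had a pooled summit of signal 46.68, nearer to the TSS of CG11586 (73 bp) than to its own (162 bp). The accessory gene VhaAC45 had one of signal 53.17, 174 bp upstream, with a match in replicate 1 at rank 8661 and in no other replicate.

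**Figure D2:**
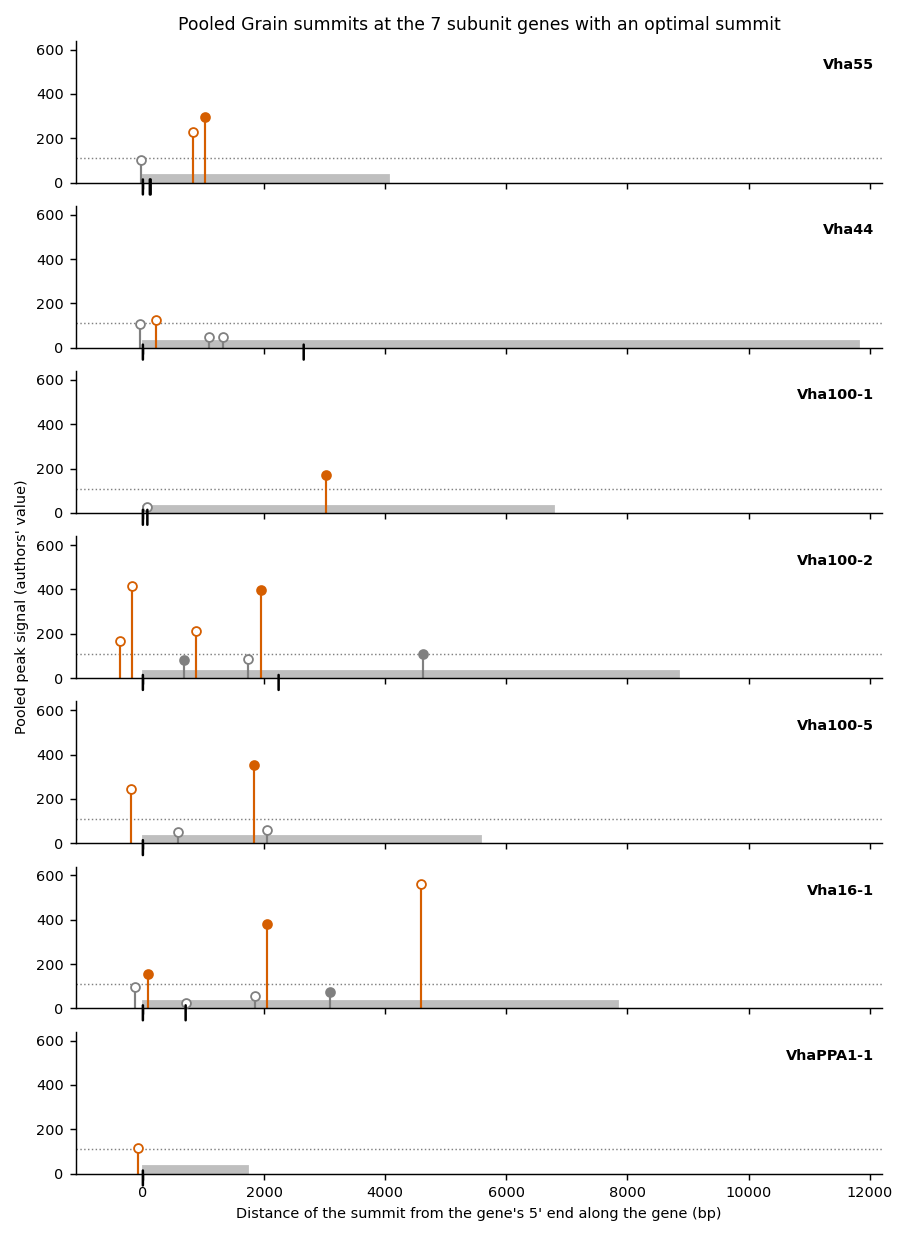
Pooled Grain summits at the 7 V-ATPase genes with an optimal summit: the x axis is the distance along the gene from its 5' end in bp, the y axis the authors' pooled signal, the grey bar the gene, the black ticks below the axis its transcription start sites and the dotted line the lowest optimal signal of 109.7. Orange marks optimal summits and grey weaker pooled ones, and filled circles have a GATA hexamer within 50 bp; the tallest summits at Vha16-1, Vha55, Vha100-1 and Vha100-5 lie inside the gene.

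By position, 7 of the 14 optimal summits (50%) lay within 500 bp of a TSS of their gene, and 39.7% of all 6580 optimal summits lay within 500 bp of any TSS. Introns held 9 of the 14, upstream sequence 4 and a 5' UTR 1. The 14 could lie only in a gene or within 1000 bp upstream, a limit not set on the 6580. The 2 shares are therefore not directly comparable. Counted by gene, an optimal summit within 500 bp of an own TSS was present at 5 of 33 (15.2%), beside 17.5% of all protein-coding genes. The same count with pooled summits was 16 of 33 (48.5%), beside 39.1%. Vha55 and Vha100-1 had optimal summits beyond 500 bp only, and Vha100-2, Vha100-5 and Vha16-1 had both kinds.

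Hexamers were present within 50 bp of 6 of the 14 optimal summits (42.9%, 95% Wilson interval 21.4 to 67.4%, which covers counting error only), beside 46.2% of all optimal summits. Of the 7 summits beyond 500 bp from an own TSS 4 held one, and of the 7 nearer ones 2 did. Over all optimal summits the shares were 50.8% beyond 500 bp from any TSS and 39.4% within it. The hexamer interval of the 14 summits covers the share of the whole list, and no test was made. It treats the summits as separate, although they lie at only 7 genes. The GAGA element GAGAG lay at 4 of 14 (28.6%, interval 11.7 to 54.6%) beside 15.0%, and the E box CAGCTG at 2 of 14 (14.3%, interval 4.01 to 39.9%) beside 4.76%. Neither the DREF element TATCGATA nor the M1BP element GGTCACAC was found at any of the 14, which leaves a share of up to 21.5% possible for each.

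The Mitf core CACGTG was at 1 of 14 summits (7.14%, interval 1.27 to 31.5%) and at 1.22% of all optimal summits. Its extended form TCACGTGA, which contains it, was at that same Vha16-1 summit and at 5 of the 6580 optimal summits in all; with 1 summit behind it, this is given as a description. In promoter windows, from 250 bp before to 50 bp after the gene's 5' end and searched on both strands, CACGTG was present at Vha44, VhaM9.7-d and VhaAC45RP, 3 of 33 (9.09%), beside 4.2% of all protein-coding genes. TCACGTGA was present at Vha44 alone (3.03%), beside 0.172%. GATA hexamers were in 15 of the 33 windows (45.5%), beside 46.7%, and the DREF element in 2, those of Vha55 and VhaSFD (6.06%), beside 9.36%. These matches describe letters in a window and say nothing about which factor was bound.

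Counts differed between subsets of the genes. The 13 genes that encode the subunit forms used in epithelial plasma membranes (Vha68-2, Vha55, Vha44, Vha36-1, Vha26, Vha14-1, Vha13, VhaSFD, Vha100-2, Vha16-1, VhaPPA1-1, VhaAC39-1 and VhaAC45) held optimal summits at 5 (38.5%) and pooled summits at 11 (84.6%), beside 25.5% and 47.4% of all protein-coding genes. Among the other 20 genes there were optimal summits at 2 (10%), Vha100-1 and Vha100-5, and pooled summits at 6 (30%). The split is only partly between paralogs. Vha55, Vha44, Vha26, Vha13 and VhaSFD are each the only gene of their subunit, and all 4 e subunit genes are among the other 20. Within 500 bp of an own TSS the pooled counts were 11 of 13 (84.6%) and 5 of 20 (25.0%), beside 39.1% of all genes. In each of the 3 replicates a summit was present at 11 of the 13 (84.6%) and at 5 of the 20 (25.0%), beside 41.8%. These summits need not coincide: the strongest at Vha14-1, one of the 11, lay at 540, -145 and 635 bp from its 5' end in replicates 1, 2 and 3. The epithelial genes are also longer, with a median of 3594 bp against 1362.5 bp, and whether length accounts for the split was not tested. With optimal summits among long genes the counts came close, at 4 of 9 epithelial genes (44.4%) and 2 of the other 6 (33.3%), beside 36.8% of all long genes. With pooled summits among short genes they were 3 of 4 and 3 of the other 14, beside 33.5% of all short genes.

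**Figure D3:**
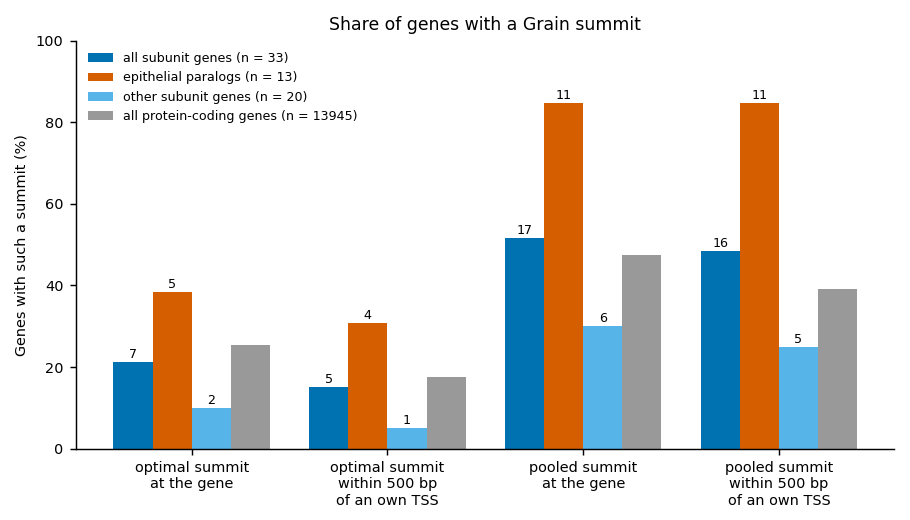
Share of genes (%) with a Grain summit, for all 33 V-ATPase genes, the 13 genes of the epithelial list (labelled epithelial paralogs), the other 20 and all 13945 protein-coding genes, by optimal or pooled summit and by position. Numbers above the bars are counts of genes. The epithelial list reaches 84.6% with pooled summits, beside 47.4% of all genes, and the other V-ATPase genes stay below the grey bar in each of the 4 groups.

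Replicates differed in how many of the V-ATPase genes they placed among their 6580 strongest peaks. Replicate 1 had 6 genes (18.2%, beside 26% of all protein-coding genes), replicate 2 had 11 (33.3%, beside 28.3%) and replicate 3 had 5 (15.2%, beside 24.7%). The mean was 22.2 ± 9.74% of V-ATPase genes and 26.4 ± 1.82% of all genes (SD, n = 3), so the gap between them was smaller than the spread over replicates. Replicate 2 alone was above its background. Of the 13 genes of the epithelial list 8 had such a peak in replicate 2 and 3 in each of replicates 1 and 3, while of the other 20 genes 3, 3 and 2 had one in replicates 1, 2 and 3. The epithelial share was thus 23.1% in replicates 1 and 3, below the share of all genes there, and 61.5% in replicate 2. At single summits, the Vha55 pair was counted once because it shares its ranks. Replicate 2 then gave the best of the 3 ranks at 9 of 13 (69.2%). With every summit counted it did so at 10 of 14 (71.4%), beside 33.7% of the 6492 optimal summits matched in all 3 replicates. The 6492 were likewise counted without merging summits that share ranks. Replicate 2 peaks were also narrower (median 430 bp) than those of replicates 1 (464 bp) and 3 (456 bp), and the part of this in the result was not tested. Of the 14 optimal summits, 12, 13 and 12 were among the 6580 strongest peaks of replicates 1, 2 and 3, and 11 were in all 3. The same count over all optimal summits was not made, so whether this support is typical of them is not known.

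Other housekeeping complexes give a scale for these counts. Optimal summits lay at 5 of 48 proteasome subunit genes (10.4%) and at 6 of 40 genes of mitochondrial complex I (15.0%), and pooled summits at 15 (31.3%) and 12 (30%). Over all protein-coding genes the shares were 25.5% and 47.4%, so both complexes were below them. The corresponding V-ATPase shares were 21.2% and 51.5%, and the 20 genes outside the epithelial list were at 10% and 30%. Median gene lengths were 1381.5 bp for the proteasome and 1103 bp for complex I, against 1732 bp for the V-ATPase, and no test was made between these groups. Among short genes alone the V-ATPase had the lowest optimal share, with 1 of 18 genes (5.56%). The proteasome had 5 of 44 (11.4%) and complex I 4 of 35 (11.4%), beside 14.2% of all short genes. With pooled summits the short-gene shares were 33.3% for the V-ATPase, 29.55% for the proteasome and 25.7% for complex I, beside 33.5% of all short genes.

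Among 16 genes for the assembly and control of the V-ATPase and its signalling at the lysosome, 3 held an optimal summit (18.8%), beside 25.5% of all genes. Among the 6580 strongest peaks of single replicates the counts were 6 (37.5%), 7 (43.8%) and 2 (12.5%), beside 26%, 28.3% and 24.7%. Nprl3, of the GATOR1 complex that restrains TOR signalling, had a summit of signal 814.9 with ranks of 88, 34 and 135, at -229 bp from its own TSS and nearer to the TSS of upSET. Rbcn-3A, a rabconnectin that helps assemble the enzyme, had one of signal 154.8 with ranks of 2845, 4914 and 13966, in the gene 2194 bp from a TSS with a hexamer. Lamtor4, of the Ragulator scaffold that meets the V-ATPase at the lysosome, had one of signal 136.1 at -37 bp with ranks of 5553, 3488 and 8604. Iml1 and Rbcn-3B held pooled summits below the optimal list. Mitf, the TOR kinase gene, raptor, RagA-B, RagC-D, ATP6AP2, Nprl2 and the other Lamtor genes held no pooled summit, but some had strong peaks in single replicates. Mitf ranked 3702 and 3804 in replicates 1 and 2 and was absent from replicate 3, and RagC-D, a GTPase gene of TOR signalling, ranked 368 in replicate 2 and was absent from the others.

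Lysosomal genes outside the enzyme held optimal summits at 12 of 18 (66.7%), beside 25.5% of all protein-coding genes. Of the 15 longer than the median 12 did (80.0%), beside the 36.8% of all long genes given above. The strongest were at spin, a lysosomal efflux transporter, with signal 740.1 and ranks of 105, 94 and 146, although this summit lay 10826 bp from a spin TSS and nearer to that of Got1. Cln7, a membrane transporter, followed with 291.3, Hexo1 (a hexosaminidase) with 238.2, the cathepsin gene CtsL1 with 213.3, the glucocerebrosidase gene Gba1b with 210.4 and the cathepsin gene CtsF with 182.7. Long V-ATPase genes were at 40.0% by the same count, and the difference between these lists was not tested.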

How the data were processed

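The data were peak lists from ChIP-seq of Grain in 3 biological replicates of 1 group. Per the files deposited with the lists, the authors called peaks for each replicate and for the pooled replicates against a control and derived the optimal list by the irreproducible discovery rate method, with aligner, caller and settings not given in the sources used. In the deposited lists each peak has a signal value, a −log10 q-value (at most 4.21 in the pooled list) and a summit offset in bp. The dm3 lists were not used. Nothing in the lists gives read counts.

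Summits (peak start plus offset) were set against the Ensembl release 115 annotation and the RefSeq release 6 genome (dm6), whose arm ends no peak passed. All 6580 optimal peaks were found to be the 6580 pooled peaks of highest signal. A replicate's rank for a pooled peak is that of its strongest peak overlapping by at least 1 bp, so neighbouring summits can share a replicate peak. Genes were described with the strongest peak per list, motifs with the 101 bases centred on the summit, and the share of all genes or summits beside each count. No test was made, since there is 1 group and the genes are a chosen list. The code was tested on simulated data and used Python 3.11.15, numpy 2.4.6, pandas 2.3.3, scipy 1.17.1 and matplotlib 3.10.9.

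Gene lists and alternatives were chosen with earlier results of these data known. Every gene with a symbol beginning in Vha was accounted for. Those with an optimal summit were given with all replicate ranks, the rest by their strongest peak, and up to 6 genes of other lists by signal. The TCACGTGA motif, VhaM9.7-c, the replicate ranks of regulators with no optimal summit, the count of best ranks over all optimal summits and the comparison of replicate lists with the pooled list were added after values were seen. The TOR kinase gene was matched as mTor, and ATP6AP2, the accessory subunit once called VhaM8.9, counts with the regulators because its symbol does not begin with Vha.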

Additional observations from a re-analysis of the deposited data

How the results depend on the processing

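The 7 genes and 14 optimal summits became 4 and 9 with the 3290 optimal peaks of highest signal, and 17 and 40 with the whole pooled list. Support among the 6580 strongest peaks of all 3 replicates, at 1 bp of overlap, left 5 genes and 11 summits, and asking it of the remaining replicates with 1 left out in turn gave 5 genes each time and 11 to 12 summits, so the smaller counts follow from the support asked for. Support in all 3 with overlap of at least 50% of both intervals left 4 and 6. Upstream reaches of 0, 500 and 2000 bp gave 6, 7 and 7 genes, and assignment to the nearest TSS gave 7 genes and 12 summits. Summits with a hexamer numbered 3 within 25 bp and 11 within 100 bp, against 6 within 50 bp. A wider window can only gain matches. The share over all optimal summits was counted for 50 bp alone, so the 25 and 100 bp counts have no background. The median over summits of the mean replicate rank was 1880; it was 3896 with 50% overlap, for the 9 of 14 summits that still matched, and 1539 to 1883 with a replicate left out. The mean number of genes per replicate, 7.33 among the 6580 strongest peaks, was 4.33 with the 3000 strongest, 12.7 with the 12000 strongest, 18.3 with all peaks, and 5.5 to 8.5 with a replicate left out. No paired analysis was possible because there is 1 group. Counts of genes thus follow where the threshold is set, and the deposited lists give no depth by which to set it.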

Other observations

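VhaM9.7-c, an e subunit gene chosen here after its values were seen, had a summit in each replicate list at -32, 1 and -44 bp from its 5' end, with ranks of 3056, 3137 and 9867. The nearest pooled summit lay 1477, 1510 and 1465 bp from these summits. A promoter with a peak in all 3 replicates, in 2 of them among the 6580 strongest, therefore had no peak in the pooled list, and it counts among the V-ATPase genes without a pooled summit.

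Such gaps were counted over the whole lists. Of the 6580 strongest peaks, 138 in replicate 1 (2.1%), 365 in replicate 2 (5.55%) and 90 in replicate 3 (1.37%) overlapped no pooled peak. Of these, 28, 33 and 27 overlapped a peak among the 6580 strongest in both other replicates. The cause was not tested.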
